A study of Mus musculus with 12 samples.

Results

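The genes of cholesterol and fatty acid synthesis were followed in mouse splenic B cells with and without IgM and in 2 Foxp1 genotypes. The set was a written list of 36 genes that covers the mevalonate and isoprenoid steps, the sterol steps, the regulators of the pathway, sterol transport and efflux, and fatty acid synthesis and desaturation. Of these, 35 had a probe set that named a single gene, among 18193 such genes on the array, and Acat2 was not analysed here. A filter that asked for a log2 value above 4 on at least 3 arrays kept 32 of them among 9293 genes tested. Tm7sf2, Fads1 and Fads2 did not pass it and are described by their levels.

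RNA came from B220+ cells sorted from spleen by flow cytometry, from mice of a mixed 129/Sv-C57BL/6 background, and was read on 12 one-colour Affymetrix arrays. The cells called deleted below were Foxp1flox/del, and the cells called control were Foxp1wt/flox, so the controls also carried a conditional allele. All cells were incubated for 4 h, either without addition (unstimulated) or with what the labels call IgM, and each of the 4 resulting groups had 3 arrays. The sources used here do not say which Cre driver or cell type recombined the conditional allele, the age of the mice, or whether replicates came from separate animals, so p-values measure the spread between these samples, which may be technical.

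Cells make cholesterol from acetyl-CoA through mevalonate and the isoprenoid farnesyl diphosphate, which squalene synthase and a chain of sterol enzymes turn into cholesterol. Most of these enzymes, and those that build fatty acids, are encoded by genes that the SREBP transcription factors switch on when membranes are short of sterol. SCAP escorts the SREBP precursors out of the endoplasmic reticulum, and the INSIG proteins hold that complex back when sterol is plentiful. Sterol excess instead activates the nuclear receptor LXR, whose known targets include the efflux transporters ABCA1 and ABCG1. Lymphocytes that leave rest and prepare to divide need new membrane, and the pathway is known to be switched on in activated lymphocytes.

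Promoter sequence was read for the members that rose with IgM in control cells, since SREBP factors are known to act beside the CCAAT-binding factor NF-Y. The sequences and starts are those of RefSeq on GRCm38.p6, each printed 5′ to 3′ on the strand of its gene, as the stretch just before an annotated start. Capitals mark CCAAT or its reverse complement ATTGG and, in Hmgcs1, the sterol regulatory element core as well. Of the 11 raised genes with promoter sequence, 8 had such a box within 100 bases of a start. Tested members that were not raised had one there as well: Dhcr7, Ebp, Insig2, Mvd, Mvk, Npc2, Nsdhl and Srebf1. The share within 100 bases was not counted over all genes, so such a box marks no trait of the raised genes. The stretch that holds the box is shown for each of the 8 raised genes.
Cyp51: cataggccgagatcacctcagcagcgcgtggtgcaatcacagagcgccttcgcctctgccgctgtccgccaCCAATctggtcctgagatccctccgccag
Fasn: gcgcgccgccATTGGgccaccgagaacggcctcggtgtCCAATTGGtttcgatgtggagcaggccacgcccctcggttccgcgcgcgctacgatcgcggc
Hmgcs1: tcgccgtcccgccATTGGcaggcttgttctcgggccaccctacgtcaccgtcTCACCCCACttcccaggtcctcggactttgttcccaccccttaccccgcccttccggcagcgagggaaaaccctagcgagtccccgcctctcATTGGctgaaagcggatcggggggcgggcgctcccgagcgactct
Hsd17b7: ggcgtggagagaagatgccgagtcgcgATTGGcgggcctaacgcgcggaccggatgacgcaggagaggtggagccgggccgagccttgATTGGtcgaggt
Idi1: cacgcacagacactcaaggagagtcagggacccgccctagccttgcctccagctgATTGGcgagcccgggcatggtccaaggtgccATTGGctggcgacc
Lss: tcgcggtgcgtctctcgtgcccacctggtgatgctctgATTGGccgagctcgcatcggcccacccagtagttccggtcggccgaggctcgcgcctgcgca
Msmo1: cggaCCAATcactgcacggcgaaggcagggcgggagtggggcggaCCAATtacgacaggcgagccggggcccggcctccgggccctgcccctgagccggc
Sc5d: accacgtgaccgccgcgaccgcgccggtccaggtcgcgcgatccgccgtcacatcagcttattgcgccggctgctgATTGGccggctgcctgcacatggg

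These stretches lie at chr5:4104698-4104797 on the minus strand for Cyp51, chr11:120824548-120824647 minus for Fasn, chr13:119690162-119690350 plus for Hmgcs1 and chr1:169969206-169969305 minus for Hsd17b7. Those of Idi1, Lss, Msmo1 and Sc5d lie at chr13:8885506-8885605 plus, chr10:76531505-76531604 plus, chr8:64733579-64733678 minus and chr9:42264301-42264400 minus. All lie immediately upstream of an annotated start, and that of Hmgcs1 is longer, 189 bases, so that it holds its sterol element as well as its box 45 bases before the start. Idi1 carries 2 boxes, 14 and 45 bases before its start, and Msmo1 carries 2 within its stretch. Fasn has 3 matches, of which the CCAAT and the ATTGG of CCAATTGG overlap.

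Motifs were searched on both strands in the 250 bases before each start. CCAAT was present for 20 of the 27 members with a window (74.1%), against 37.5% of 27025 genes. It was present for 10 of the 11 raised members that had a window and for 9 of 13 other tested members. The sterol regulatory element core TCACNCCAC, the short sequence through which SREBP factors are known to act, matched only Hmgcs1 among the 27 members (3.70%), 137 bases before the start, against 1.22% of genes. The E-box CACGTG was present for Abca1, Dhcr7, Hsd17b7, Insig1, Sc5d and Scap (22.2%, against 6.86% of genes), and the direct repeat of AGGTCA with 4 free bases between, which LXR is known to bind, for 0 of 27. A match is a description of letters, not a site of binding, and a window without a match says nothing about the factor.

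Values below are the deposited log2 values or differences between group means of them, and levels of different genes are not comparable. Differences were tested with limma over all 9293 genes, with 4 group means and p-values adjusted by the Benjamini-Hochberg method, and a gene was called at an adjusted p under 0.05. The targeted gene Foxp1 was read by 8 probe sets, whose differences between deleted and control cells ran from -0.29 to 0.13 unstimulated and from -0.30 to 0.32 with IgM, so the arrays gave no check of the genotype labels. Where its probes lie relative to the deleted part is not given in the sources used here.

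B cell markers were high, and the summed linear signal of 9 of the 10 listed was 79500 to 88800 in the unstimulated groups and 43200 to 54800 in the IgM groups. Of 13 macrophage and monocyte markers read, 8 (Mrc1, Marco, C1qa, C1qb, C1qc, Itgam, Fcgr1 and Cd163) lay at or below 4 on all 12 arrays. The summed signal of the 13 was nonetheless 248 to 588 in unstimulated control cells and 783 to 3100 in unstimulated deleted cells. In the matching IgM groups it was 210 to 487 and 500 to 2460. A linear sum weighs the brightest markers most, and Lyz2 reached 11.29. Of the 5 markers that passed the filter, 4 lay higher in unstimulated deleted than control cells and 1 lay lower, by 1.45. The 10 neutrophil and granule markers read summed to 339 to 2710 in unstimulated control and 3360 to 23100 in unstimulated deleted cells, and to 239 to 1520 and 1760 to 13400 with IgM. The 5 erythroid markers read summed to 91.9 to 124 in unstimulated control and 153 to 2160 in unstimulated deleted cells. For the 4 platelet markers these sums were 31.7 to 97.7 and 155 to 298. With IgM the erythroid sums were 81.6 to 87.3 and 122 to 643, and the platelet sums 36.8 to 79.9 and 39.5 to 184. Unstimulated T cell, NK cell, dendritic and plasma cell sums overlapped between genotypes. The part of these markers in the differences below was not tested. In sorted bulk cells fewer cells of a type and less RNA per cell cannot be told apart.

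The array of deleted cells with IgM, replicate 3, stood apart. Its log2 values correlated with those of its group mates at r = 0.82 and 0.87, while replicates of every group other than these pairs correlated at 0.95 or above. On it, 14 of the 32 tested members lay more than 1 log2 unit from the mean of replicates 1 and 2. That count was not made over all genes, so it marks no trait of these members. The largest deviation of a member from its group mates on any other array was 1.42. On replicate 3, Ebp (-2.70), Pmvk (-2.67), Npc2 (-2.54) and Fdps (-2.17) were the lowest. Acly (1.38), Abca1 (1.24), Acaca (1.15) and Hmgcs1 (1.09) were the highest there. Genes with a longer genomic span tended to lie higher on this array, with a Spearman rho of 0.43 over the 32 members and 0.49 over 9279 genes, given as a description. Counts of all members and of the neighbouring lists, and IgM differences of the members in deleted cells, are therefore given without this array as well.

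**Figure D1:**
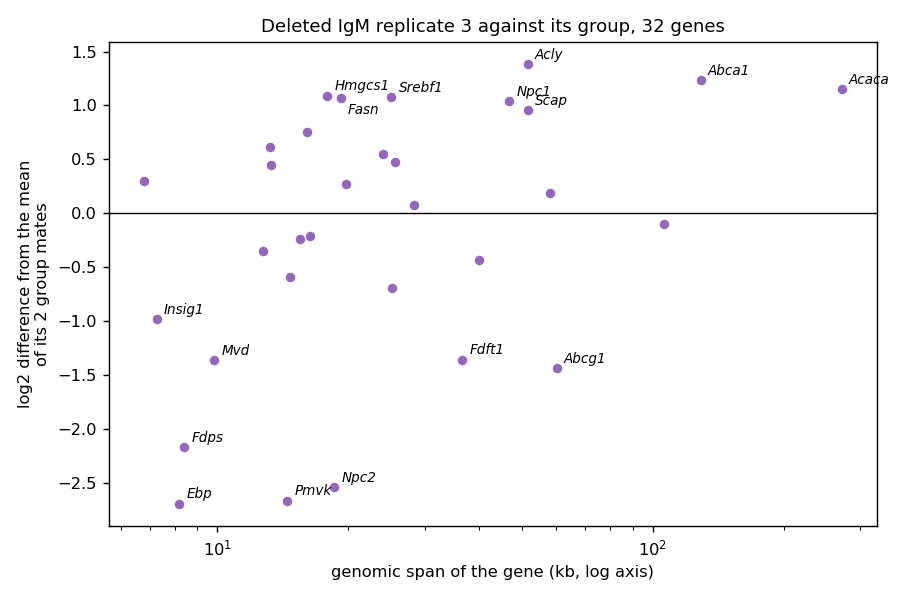
Each point is 1 of the 32 tested genes. The horizontal axis is the gene's genomic span in kb on a log scale, and the vertical axis is the log2 value on the deleted IgM replicate 3 array minus the mean of its 2 group mates. Ebp and Pmvk lie lowest at -2.70 and -2.67, and Acly lies highest at 1.38.

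With IgM, 12 of the 32 tested members rose in control cells (37.5%) and 2 fell (6.25%), beside 8.71% of all genes that rose and 12% that fell. The median log2 difference of the members was 0.68, against -0.05 over all genes. Lanosterol synthase (Lss) rose 4.02-fold, Fasn 3.78-fold and Idi1 3.44-fold, and the cholesterol exporter gene Abca1 fell 2.48-fold. In deleted cells 11 of 32 rose (34.4%) and 0 fell, beside 9.78% and 9.21% of all genes, with a median of 0.50 against -0.08. Without the replicate 3 array, 12 rose and 1 fell in deleted cells, beside 12.9% higher and 12.9% lower of all genes. In control cells, whose own values do not change, that fit called 15 higher and 5 lower, beside 16.6% and 19.6% of all genes.

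**Figure D2:**
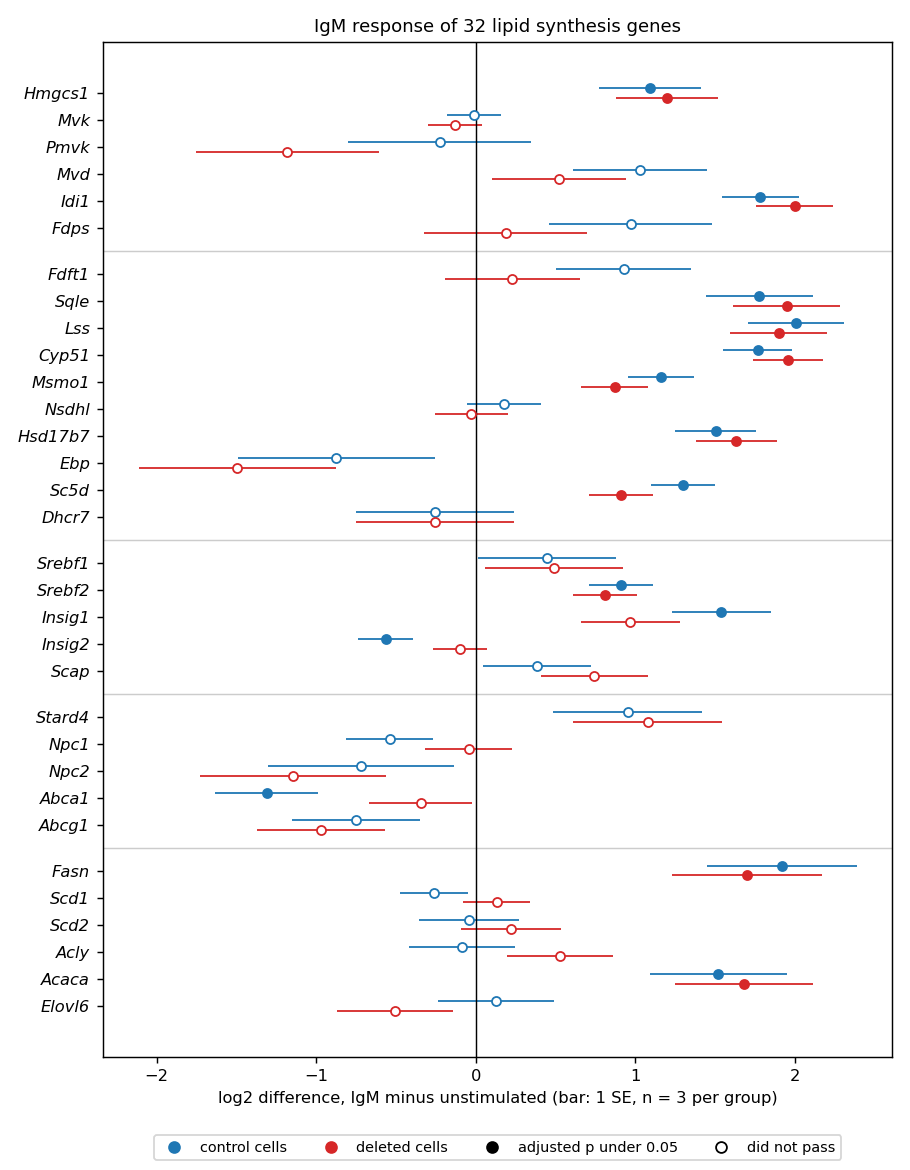
Points give the log2 difference between IgM and unstimulated cells for each of the 32 tested genes in control and in deleted cells, grouped by role, with bars of 1 SE (n = 3 per group) and filled points for an adjusted p under 0.05. Of the 12 genes raised in control cells, 6 belong to the sterol steps, where Lss reaches 2.01.

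The mevalonate and isoprenoid steps held 2 raised genes of 6 tested in each genotype. Idi1, the isopentenyl diphosphate isomerase, lay at 10.04, 10.26 and 9.53 in replicates 1, 2 and 3 of unstimulated control cells and at 11.71, 11.88 and 11.58 with IgM. It lay in deleted cells at 9.31, 9.79 and 9.31 without and at 11.25, 11.49 and 11.67 with IgM. Every IgM array lay above every unstimulated array, and the log2 difference was 1.78 (SE 0.24, limma adjusted p = 0.000587) in control and 2.0 (SE 0.24, adjusted p = 0.000433) in deleted cells. Hmgcs1, which makes the substrate of the step that yields mevalonate, lay at 11.17, 11.50 and 11.00 in unstimulated control cells and at 12.14, 12.39 and 12.42 with IgM. Its difference was 1.09 (SE 0.32, limma adjusted p = 0.033) in control and 1.2 (adjusted p = 0.0238) in deleted cells, with no overlap between the groups in either. The call of Hmgcs1 was lost under 9 of 24 other settings in control and under 6 in deleted cells.

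The remaining genes of these steps did not pass. Mvd, the mevalonate diphosphate decarboxylase, differed by 1.03 in control cells (limma adjusted p = 0.116) and by 0.52 in deleted cells. Fdps, the farnesyl diphosphate synthase, lay at 9.59, 9.83 and 9.22 in unstimulated control cells and at 10.58, 10.76 and 10.21 with IgM, which did not overlap, a difference of 0.97 (adjusted p = 0.226). In deleted cells Fdps lay at 9.39, 9.97 and 9.24 without IgM and at 10.26, 10.63 and 8.28 with it, so the groups overlapped through replicate 3. Its difference there was 0.19 with that array and 0.91 (limma adjusted p = 0.0373) without it. The kinase genes Mvk and Pmvk differed by -0.01 and -0.23 in control cells and by -0.13 and -1.18 in deleted cells, and Pmvk in deleted cells with IgM lay at 7.23, 7.55 and 4.72.

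The sterol steps held more raised genes than any other group of the list, with 6 of 10 tested genes raised in each genotype and 0 lowered. Cyp51, the lanosterol demethylase, lay at 8.70, 8.90 and 8.52 in unstimulated control cells and at 10.44, 10.56 and 10.42 with IgM. In deleted cells it lay at 8.21, 8.64 and 8.53 without and at 10.14, 10.33 and 10.78 with IgM. The groups were more than 1 log2 unit apart at their nearest arrays in both genotypes, and the difference was 1.77 (SE 0.22, limma adjusted p = 0.000394) in control and 1.96 (SE 0.22, adjusted p = 0.000282) in deleted cells. Cyp51 and Idi1 kept their call in both genotypes under each of the 24 other settings tried.

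Lss, which closes squalene epoxide into lanosterol, lay at 5.78, 6.61 and 5.44 in unstimulated control cells and at 7.95, 8.23 and 7.67 with IgM. In deleted cells Lss lay at 6.05, 6.13 and 5.81 without and at 7.61, 7.87 and 8.21 with IgM. The groups did not overlap, and the difference was 2.01 (SE 0.30, limma adjusted p = 0.00114) in control and 1.90 (adjusted p = 0.00181) in deleted cells. Sqle, the squalene epoxidase that supplies the substrate of Lss, lay at 8.15, 8.84 and 7.80 in unstimulated control cells and at 9.87, 10.38 and 9.88 with IgM. It lay at 7.90, 8.44 and 7.75 in unstimulated deleted cells and at 9.51, 9.94 and 10.48 with IgM. Again no unstimulated array reached an IgM array, and the difference was 1.78 (SE 0.34, limma adjusted p = 0.00383) in control and 1.95 (adjusted p = 0.00279) in deleted cells.

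Hsd17b7, a ketosteroid reductase of the pathway, lay at 6.42, 7.09 and 6.49 in unstimulated control cells and at 7.99, 8.47 and 8.06 with IgM. It lay in deleted cells at 6.36, 6.40 and 5.81 without and at 7.78, 7.69 and 8.01 with IgM. The log2 difference was 1.5 (SE 0.25, limma adjusted p = 0.00217) in control and 1.63 (adjusted p = 0.0016) in deleted cells, with no overlap. Sc5d, the sterol desaturase, lay at 9.09, 9.28 and 8.83 in unstimulated control cells and at 10.36, 10.57 and 10.17 with IgM, and at 9.16, 9.29 and 9.10 against 10.14, 10.27 and 9.85 in deleted cells. It rose by 1.30 (SE 0.20, limma adjusted p = 0.00131) and 0.91 (adjusted p = 0.0101). Msmo1, the methylsterol monooxygenase, lay at 10.42, 10.47 and 9.87 in unstimulated control cells and at 11.50, 11.46 and 11.28 with IgM, and at 10.20, 10.37 and 10.09 against 11.19, 11.15 and 10.93 in deleted cells. It rose by 1.16 (SE 0.21, limma adjusted p = 0.00284) and 0.87 (adjusted p = 0.0145), and neither gene's groups overlapped. In deleted cells the call of Msmo1 was lost under 6 of 24 other settings.

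The other sterol genes did not pass in either genotype. Fdft1, the squalene synthase, differed by 0.93 in control cells (limma adjusted p = 0.158) and by 0.23 in deleted cells, where it lay at 9.90, 10.25 and 8.72 with IgM. Ebp, a sterol isomerase, went the other way: it lay at 10.77, 10.36 and 10.12 in unstimulated control cells and at 9.88, 9.72 and 9.03 with IgM. In deleted cells it lay at 10.95, 10.51 and 10.18 without and at 10.12, 9.78 and 7.26 with IgM. All IgM arrays lay below all unstimulated arrays, and the differences were -0.88 (limma adjusted p = 0.385) and -1.50 (adjusted p = 0.12). Nsdhl and Dhcr7 differed by 0.18 and -0.26 in control cells and by -0.03 and -0.26 in deleted cells. Tm7sf2, a sterol reductase below the filter, ranged from 2.45 to 4.16 over the 12 arrays.

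**Figure D3:**
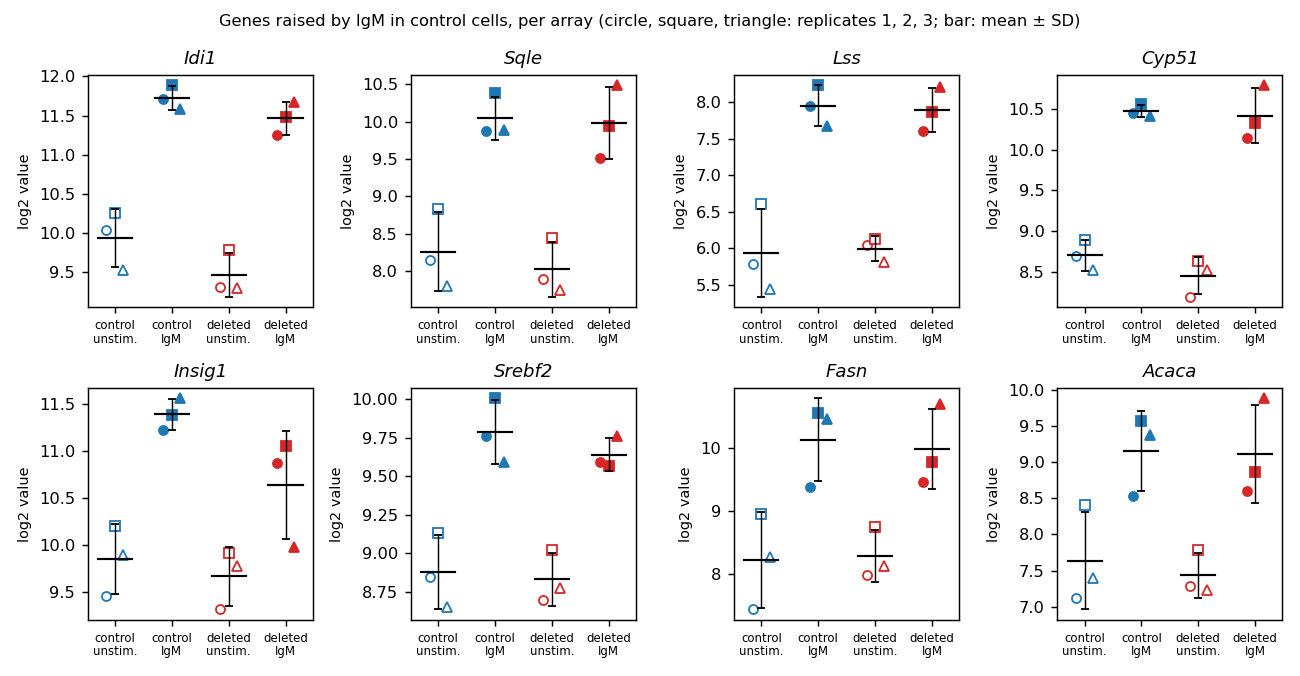
The vertical axes give the deposited log2 value of 8 genes that rose with IgM in control cells, with 1 point per array and bars of mean ± SD for the 4 groups of 3. Idi1, Sqle, Lss and Cyp51 separate by IgM in both genotypes, while Insig1 on the deleted IgM replicate 3 array lies at 9.98.

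Among the regulators, Srebf2, which encodes the SREBP of the sterol branch, lay at 8.84, 9.13 and 8.65 in unstimulated control cells and at 9.76, 10.01 and 9.59 with IgM. In deleted cells it lay at 8.69, 9.02 and 8.77 without and at 9.59, 9.57 and 9.76 with IgM. The groups did not overlap, and Srebf2 rose by 0.91 (SE 0.20, limma adjusted p = 0.00873) and 0.81 (adjusted p = 0.0172). In deleted cells that call was lost under 6 of 24 other settings. A second passing probe set of Srebf2 gave 0.59 in control and 0.24 in deleted cells (0.45 without replicate 3), with overlapping groups in each genotype. Srebf1, the gene of the SREBP tied to fatty acid synthesis, differed by 0.45 and 0.49 and did not pass in either genotype. Scap differed by 0.38 in control and 0.74 in deleted cells, neither past the threshold.

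The INSIG genes moved apart in control cells. Insig1, itself a known SREBP target, lay at 9.46, 10.20 and 9.90 without IgM and at 11.22, 11.38 and 11.56 with it, and rose by 1.54 (SE 0.31, limma adjusted p = 0.00556). Insig1 in deleted cells lay at 9.31, 9.91 and 9.77 without and at 10.87, 11.05 and 9.98 with IgM, with replicate 3 just above the highest unstimulated array and a difference of 0.97 (adjusted p = 0.0515) that became 1.30 (adjusted p = 0.00434) without replicate 3. Insig2, its SREBP-independent relative, lay at 8.70, 8.62 and 8.52 in unstimulated control cells and at 8.02, 8.20 and 7.92 with IgM, and fell by 0.57 (SE 0.17, limma adjusted p = 0.0365). That call was lost under 13 of 24 other settings, among them the omission of any 1 of the 6 control arrays. In deleted cells Insig2 lay at 8.59, 8.35 and 8.37 without and at 8.28, 8.34 and 8.38 with IgM, with overlap and a difference of -0.10 (adjusted p = 0.71). Other passing probe sets of Insig2 gave -0.63 and -0.18 in control cells and -0.50 and 0.03 in deleted cells. The first of these was thus lower with IgM in both genotypes.

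Transport genes held 1 lowered gene of 5 tested in control cells and 0 called in deleted cells. Abca1 lay at 11.86, 11.91 and 12.21 in unstimulated control cells and at 10.66, 10.58 and 10.79 with IgM, more than 1 log2 unit apart throughout, and fell by 1.31 (SE 0.32, limma adjusted p = 0.0154). That call was lost under 5 of 24 other settings, among them the omission of control IgM replicate 2 (adjusted p = 0.055) or of control unstimulated replicate 3 (adjusted p = 0.0587). In deleted cells Abca1 lay at 11.46, 11.14 and 11.63 without and at 10.87, 10.43 and 11.89 with IgM, so that replicate 3 was the highest of the 6. The difference there was -0.35 (limma adjusted p = 0.489) with that array and -0.76 (adjusted p = 0.0218) without it. Its 2 other probe sets gave -1.74 and -1.85 in control cells but 0.02 and 0.59 in deleted cells, so the probe sets disagreed on sign in the latter. Without replicate 3 these were -0.78 and -0.13, the same sign as the first probe set.

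Abcg1, the partner exporter gene, lay at 10.54, 10.33 and 10.02 in unstimulated control cells and at 9.59, 9.58 and 9.47 with IgM. In deleted cells it lay at 10.36, 9.58 and 9.31 without and at 9.47, 9.05 and 7.82 with IgM, where the groups overlapped. Its differences of -0.75 (limma adjusted p = 0.231) and -0.97 (adjusted p = 0.118) did not pass. Stard4, a cytosolic sterol carrier, differed by 0.95 (limma adjusted p = 0.192) and 1.08 (adjusted p = 0.136). Npc1 and Npc2, which move cholesterol out of lysosomes, differed by -0.54 and -0.72 in control cells and by -0.05 and -1.15 in deleted cells, and Npc2 on the deleted IgM replicate 3 array lay at 9.18 beside 11.87 and 11.58.

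Of the fatty acid genes, Fasn and Acaca rose in both genotypes and the other 4 tested did not pass in either. Fasn, the fatty acid synthase, lay at 7.43, 8.96 and 8.26 in unstimulated control cells and at 9.38, 10.56 and 10.46 with IgM, and at 7.97, 8.75 and 8.12 against 9.47, 9.79 and 10.70 in deleted cells. It rose by 1.92 (SE 0.47, limma adjusted p = 0.0145) and 1.70 (SE 0.47, adjusted p = 0.0279), and in deleted cells without replicate 3 the difference was 1.34 and was not called (adjusted p = 0.0667). Acaca, the acetyl-CoA carboxylase that feeds Fasn, lay at 7.12, 8.40 and 7.40 in unstimulated control cells and at 8.53, 9.57 and 9.38 with IgM, and at 7.29, 7.79 and 7.23 against 8.59, 8.87 and 9.88 in deleted cells. It rose by 1.52 (SE 0.43, limma adjusted p = 0.0287) and 1.68 (adjusted p = 0.0201). The call of Fasn was lost under 7 of 24 other settings in control and 9 in deleted cells, and that of Acaca under 8 and 7. For both genes the IgM groups lay above the unstimulated groups with no overlap, and replicate 1 of the control cells was the lowest in each condition. Acly, which makes the acetyl-CoA, differed by -0.09 and 0.53, Scd1 by -0.26 and 0.13, Scd2 by -0.04 and 0.22, and Elovl6 by 0.13 and -0.51. A second passing probe set of Scd1 gave 0.44 and 0.41, so the 2 disagreed on sign in control cells.

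Other probe sets were compared for the called genes. Of the 14 members called in control cells, 10 had another probe set that passed the filter, and all 16 of these other probe sets differed with IgM in the same direction. With replicate number as a block, 15 members rose and 2 fell in control cells, beside 15.5% and 20.0% of all genes, and Mvd (adjusted p = 0.00863), Fdft1 (adjusted p = 0.00382) and Stard4 (adjusted p = 0.00735) were added by limma. In deleted cells the block gave 13 raised and 2 lowered members beside 17.3% and 19.3% of all genes, adding Insig1 (adjusted p = 0.0217), Stard4 (adjusted p = 0.00432), Ebp (adjusted p = 0.0233) and Abcg1 (adjusted p = 0.0217).

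Without deleted IgM replicate 3, IgM differences in deleted cells changed most for members that were not called. Idi1 differed by 1.90, Cyp51 by 1.77, Lss by 1.74, Sqle by 1.70, Hsd17b7 by 1.54, Sc5d by 1.03, Msmo1 by 0.95, Hmgcs1 by 0.83, Srebf2 by 0.75 and Acaca by 1.30, and all 10 were still called. The least certain of these were Acaca (limma adjusted p = 0.0428) and Hmgcs1 (adjusted p = 0.0275). Among members not called, Ebp differed by -0.60, Pmvk by -0.29, Npc2 by -0.30, Abcg1 by -0.49, Npc1 by -0.39, Mvd by 0.97, Fdft1 by 0.68, Stard4 by 1.27, Scap by 0.42, Srebf1 by 0.13 and Acly by 0.07. Mvk, Nsdhl, Dhcr7, Scd1 and Scd2 lay within 0.12 of zero by their brightest probe sets, and Insig2 and Elovl6 differed by -0.13 and -0.47. Second passing probe sets of Scd1, Scd2 and Mvk gave 0.84, -0.22 and 0.17. In control cells the same fit also called Mvd, Fdps and Fdft1 higher and Ebp, Npc1 and Abcg1 lower.

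The number of calls depended on single arrays. Without control IgM replicate 2, 9 members were called in control cells and 1341 of all genes in place of 1920. Without deleted unstimulated replicate 1 or 3, 6 or 7 members were called in deleted cells, and 994 or 1155 of all genes in place of 1765.

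No member differed between deleted and control cells past the threshold in either condition. In unstimulated cells 0 of 32 were called, beside 2.03% of all genes higher and 0.818% lower in deleted cells, and at an unadjusted p under 0.05 limma gave 1 member higher and 2 lower, beside 6.47% and 4.09% of all genes. The median difference of the members was -0.01 against 0.00 over all genes. With IgM 0 of 32 were called, beside 1.59% higher and 0.129% lower, and at an unadjusted p under 0.05 again 1 was higher and 2 lower, beside 10.2% and 3.50%. The median was -0.18 against 0.08 over all genes, and without the replicate 3 array 0 of 32 were called beside 2.10% and 0.270%, with a median of -0.15 against 0.03. A p that misses the threshold does not show that the genotypes had equal levels.

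In unstimulated cells the members with the smallest p were Elovl6 and Scd2, which lengthen and desaturate fatty acids. Scd2, a stearoyl-CoA desaturase, lay at 10.87, 10.38 and 10.56 in unstimulated control cells and at 10.23, 9.17 and 9.40 in unstimulated deleted cells. With IgM it lay at 10.50, 10.48 and 10.70 in control and at 9.92, 9.32 and 10.23 in deleted cells. All deleted arrays lay below all control arrays in both conditions. The differences were -1.0 (SE 0.31, limma adjusted p = 0.156) and -0.74 (SE 0.31, adjusted p = 0.319; -0.94 without deleted IgM replicate 3), with 95% intervals of -1.69 to -0.32 and -1.43 to -0.05. A second passing probe set of Scd2 gave -1.13 and -0.79.

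Elovl6, a fatty acid elongase, lay at 2.64, 3.95 and 3.89 in unstimulated control cells and at 4.55, 5.05 and 4.45 in unstimulated deleted cells, without overlap. The difference was 1.19 (SE 0.36, limma adjusted p = 0.149), at levels near the filter that it passed with 5 of 12 arrays above 4. All 5 were of deleted cells, so Elovl6 was tested only through the group where it was higher. No p-value of Elovl6 between genotypes, with or without the block, is therefore support for a difference. With the replicate block, Elovl6 was called higher (limma adjusted p = 0.0162) and Scd2 lower (adjusted p = 0.039) in unstimulated deleted cells, 2 of 32 members beside 4.51% of all genes higher and 2.38% lower. Scd1, another stearoyl-CoA desaturase, lay in unstimulated cells at 13.27, 13.06 and 13.07 in control and at 12.76, 12.26 and 12.59 in deleted cells. These did not overlap, and the difference was -0.59 (SE 0.21, limma adjusted p = 0.249). A second passing probe set of Scd1 gave -0.82. With IgM the 2 probe sets gave -0.20 and -0.84. The block called 0 of 32 with IgM, beside 5.66% and 1.10% of all genes. Fads1 and Fads2, the desaturases of polyunsaturated fatty acids, stayed below the filter, with highest values of 5.03 and 4.78, both in replicate 1 of unstimulated deleted cells.

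**Figure D4:**
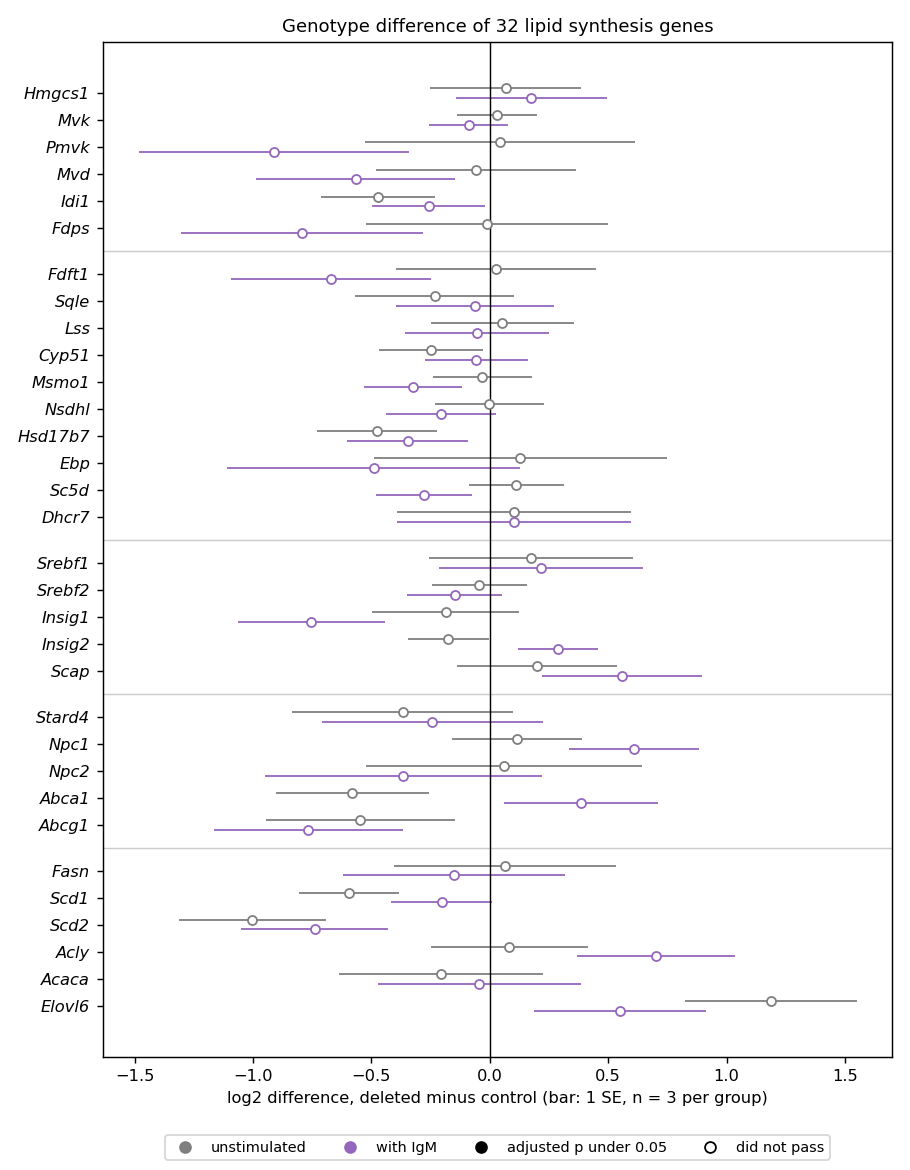
Points give the log2 difference between deleted and control cells for each of the 32 tested genes, unstimulated and with IgM, with bars of 1 SE (n = 3 per group). No point is filled, since none had an adjusted p under 0.05, and Elovl6 at 1.19 and Scd2 at -1.0 lie farthest out among the unstimulated differences.

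With IgM, Insig1 had the smallest p among the members, at 11.22, 11.38 and 11.56 in control and 10.87, 11.05 and 9.98 in deleted cells. The deleted arrays lay below the control arrays, with a difference of -0.76 (SE 0.31, limma adjusted p = 0.308) that was -0.43 without replicate 3. The differences of Acly and Abcg1 were 0.70 and -0.77 with that array and 0.24 and -0.29 without it. Of the enzymes that IgM raised, Idi1, Hsd17b7 and Sqle lay lower in unstimulated deleted cells in every replicate pair. Sc5d lay higher there in every pair, and Hmgcs1, Cyp51, Lss, Msmo1, Fasn and Acaca were higher in some pairs and lower in others. The differences of Sc5d, Hmgcs1, Msmo1 and Acaca were 0.11, 0.07, -0.03 and -0.21. How many of all genes lay lower in every pair was not counted, so this marks no trait of these enzymes. The differences of Idi1 and Hsd17b7 in unstimulated cells were -0.47 (limma adjusted p = 0.593) and -0.48 (adjusted p = 0.653). Cyp51, Lss, Sqle and Fasn differed by -0.25, 0.05, -0.23 and 0.07 there and by -0.06, -0.05, -0.06 and -0.15 with IgM, or by -0.24, -0.21, -0.31 and -0.51 there without replicate 3.

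The test of whether the IgM response differed between genotypes called 0 of 32 members, beside 0% of all genes higher and 0.108% lower, and at an unadjusted p under 0.05 it also gave 0, beside 2.65% and 1.17%. Without the replicate 3 array it again called 0 of 32, beside 0.0108% and 0.173%. For Cyp51 the response in deleted minus control cells was 0.19 (95% interval -0.49 to 0.87), for Idi1 0.21 (-0.53 to 0.96) and for Lss -0.11 (-1.05 to 0.84). Without replicate 3 these were 0.0076 (-0.52 to 0.54), 0.11 (-0.61 to 0.83) and -0.26 (-1.21 to 0.68). Abca1 had the smallest p, with 0.97 (SE 0.46, 95% interval -0.05 to 1.98, limma adjusted p = 0.951), and 0.55 without replicate 3. Insig2 followed with 0.46 (SE 0.24, 95% interval -0.06 to 0.99, adjusted p = 0.951), and 0.44 without it. That is its brightest probe set, and the IgM differences of other passing ones were -0.63 and -0.18 in control cells. In deleted cells those were -0.50 and 0.03. For Ebp the difference in response turned from -0.62 to 0.28 when replicate 3 was left out, and for Pmvk it went from -0.95 to -0.064.

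**Figure D5:**
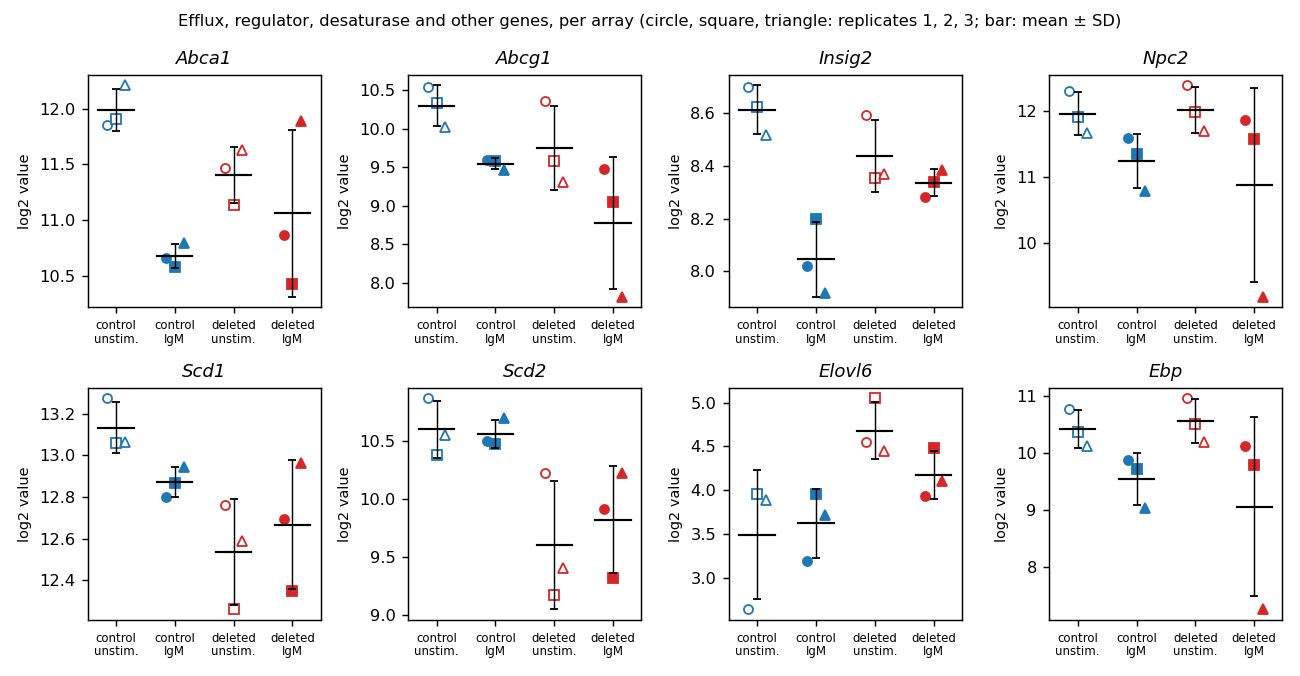
The vertical axes give the deposited log2 value per array, with mean ± SD of each group of 3, for 8 genes of efflux, regulation, desaturation and other steps. Scd2 lies lower on every deleted array than on any control array, and Npc2 and Ebp on the deleted IgM replicate 3 array lie far below their group mates at 9.18 and 7.26.

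Neighbouring pathways were read from other written lists, and their counts stand beside the same shares of all genes. Without the block these were 8.71% higher and 12% lower with IgM in control cells and 9.78% and 9.21% in deleted cells. Between genotypes without IgM they were 2.03% and 0.818%. With the block these shares were, in the same order, 15.5% and 20.0%, 17.3% and 19.3%, and 4.51% and 2.38%. Between genotypes with IgM the block gave 5.66% and 1.10%. Of 6 tested genes of the isoprenoid branch, which serves prenylation and ubiquinone, 0 were called in any comparison with all 12 arrays and no block. Without deleted IgM replicate 3, 1 was called higher and 1 lower in control cells, beside 16.6% and 19.6% of all genes. In deleted cells 1 was then higher and 0 lower, beside 12.9% and 12.9%. With the replicate block, Coq2, of ubiquinone synthesis, was called higher in both genotypes (limma adjusted p = 0.0454 and 0.0382) and Fnta, a subunit of prenyltransferases, lower in deleted cells (adjusted p = 0.0434).

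Of 19 other lipid synthesis and SREBP target genes, 4 rose and 1 fell with IgM in control cells and 5 rose and 0 fell in deleted cells. The block gave 7 higher and 2 lower in control cells, beside 15.5% and 20.0% of all genes. In deleted cells it gave 7 and 1, beside 17.3% and 19.3%. Without deleted IgM replicate 3 the counts were 9 and 3 in control cells, beside 16.6% and 19.6% of all genes. In deleted cells they were then 5 and 0, beside 12.9% and 12.9%. Fabp5, a fatty acid binding protein gene, rose by 3.37 in control and 2.79 in deleted cells (3.55 without replicate 3), and Pcyt2, of phosphatidylethanolamine synthesis, by 0.98 and 0.93 (1.02 without it). Acsl3 and Tmem97 rose by 1.41 and 2.18 in control cells, where Acss2, the acetyl-CoA synthetase, fell by 1.86. Acsl4 and Acsl5, which like Acsl3 activate fatty acids, rose by 1.08 and 0.86 in deleted cells (0.82 and 0.57 without replicate 3).

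Of 10 oxysterol and LXR genes, 2 fell in each genotype and 0 rose, while the block called 3 lower (Mylip, Lipa and Syvn1) and 1 higher (Mbtps2) in each. Over all genes the block called 20.0% lower and 15.5% higher in control cells and 19.3% and 17.3% in deleted cells. The fit without deleted IgM replicate 3 called 3 lower and 1 higher in control cells, beside 19.6% and 16.6% of all genes. In deleted cells it called 2 lower and 0 higher, beside 12.9% and 12.9%. Mylip, an LXR target whose product marks lipoprotein receptors for breakdown, fell by 2.42 (limma adjusted p = 6.47e-05) in control and by 1.72 (adjusted p = 0.000506) in deleted cells, where it differed by -1.73 without replicate 3. Syvn1 fell by 0.66 in control cells. Lipa, the lysosomal lipase, fell by 1.72 in deleted cells, but without replicate 3 it differed by -1.37 and was not called (limma adjusted p = 0.0915). Between genotypes, 1 gene of these lists was called: Pcyt1a, of phosphatidylcholine synthesis, lay 1.21 higher in unstimulated deleted cells (SE 0.26, limma adjusted p = 0.0333). Without deleted IgM replicate 3, 2 of the 19 other lipid genes were called higher there, beside 5.91% of all genes called in either direction. The block called Pcyt1a with IgM too (limma adjusted p = 0.00792) and Acsl3 higher in unstimulated deleted cells (adjusted p = 0.0174).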

How the data were processed

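The authors deposited log2 expression values made with GCRMA from Affymetrix arrays, per the submitters' processing notes. That method subtracts a background estimated from the bases of each probe, equalises the distributions of the arrays and combines probes into 1 value per probe set. Its settings are not given in the sources used here. That the scale is log2 follows from the values, which ran from a floor of 2.23 to 15.79. Values near the floor have no order, so changes there are compressed. There is no read depth for arrays, whose number sets the precision.

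Of 45101 probe sets, 34945 named 1 gene in the platform annotation. Probe sets naming several genes (932) or none (9160) and 64 controls were left out. Symbols were looked up by gene identifier for 34741. A probe set passed with a log2 value above 4 on at least 3 arrays, and the brightest passing probe set by mean over 12 arrays stood for its gene. limma 3.58.1 in R 4.3.3 tested the differences, with 4 group means, without the replicate number, and two-sided p-values adjusted over 9293 genes.

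Same-numbered samples deviated from their group means together, with correlations of 0.17 to 0.85 in all 12 pairs across the 4 comparisons. The replicate numbers were therefore taken to pair the samples, though the titles state only the number. Values are from the fit without that pairing unless the block is named, and the fit with the block is given where it changes a call. On simulated data with 200 of 9293 genes changed, limma recovered 23% at a log2 size of 1 and 73% at a log2 size of 2. That was for IgM in control cells, with 8 false calls. In the data 1920 genes were called there, far more than were changed, so these rates need not hold for the data.

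The members and the other lists were chosen with earlier results of these data known. All members may be named, with full values for up to 8 called members per comparison by smallest p, or for 2 where none was called, and for other members whose arrays a statement rests on. Genes of the other lists are named where called, up to 4 per list and comparison, and those called only with the block were named after their values were seen. Alternatives were the block, other filters, probe-set means, quantile normalization, trend and robust variance, array weights, only the arrays compared, and arrays left out. Promoters came from RefSeq on GRCm38.p6, matched by symbol.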

Additional observations from a re-analysis of the deposited data

How the results depend on the processing

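Calls of members depended on the setting. Between genotypes 0 members were called. In unstimulated cells, where 265 of 9293 genes were called, the replicate block called 2 members beside 640 genes, array weights 4 beside 845, and the block without deleted IgM replicate 3 called 6 beside 1999 of 9255 (Elovl6 higher, Idi1, Abca1, Abcg1, Scd1 and Scd2 lower). With IgM, where 160 genes were called, array weights called 1 (Scd2 lower) beside 652, and the block without that array 4 (Idi1, Fdft1, Sqle and Scd2 lower) beside 1225. Leaving out arrays without the block gave 0 in both. For IgM against unstimulated cells, arrays left out gave 2 to 20 calls in control and 2 to 13 in deleted cells. The lowest counts came without all 4 arrays of replicate 1, with 6.25% of members called in each genotype. Over all genes 5.87% were called there in control and 4.02% in deleted cells, so in control cells the members lay near that share. Without the 4 arrays of replicate 2, 3 members (9.38%) were called in control and 4 (12.5%) in deleted cells. Over all genes these shares were 3.09% and 1.99%. The block without deleted IgM replicate 3 gave 24 and 23, beside 5870 and 4976 of 9255 genes. The fit of only the 6 arrays compared gave 5 in deleted cells, beside 540 genes in place of 1765. The block changed no other call of a member than those given. The interaction called 0 members throughout.

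Signs turned for members that were not called. With arrays left out, the genotype difference of Sqle with IgM ran from -0.39 to 0.17. The IgM difference in deleted cells ran from -0.27 to 0.91 for Fdps, -0.087 to 0.68 for Fdft1, -0.70 to 0.10 for Dhcr7 and -0.45 to 0.29 for Npc1, and was 0.088 for Abca1 as the mean of its probe sets. The cause was not tested.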
